A study of Arabidopsis thaliana with 2 samples.

Results

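The transcripts described here are those that gave strong signals in seedlings of the sks (snakeskin) mutant and of its wild type alike and differed by less than 2-fold between them. They were chosen by the deposited values: probe sets of exactly 1 gene, with a signal of 1500 or more on both arrays and a ratio of sks to Col-0 strictly between 0.5 and 2. Left out by name were PSBY, PSAN, RCA, LHCB4.1, LHB1B2, EIN3 and all symbols starting with CYP, UGT or GST. Where a gene had several such probe sets the brightest was kept. This gave 28 genes of the 3602 that have a single-gene probe set. A signal limit and a ratio limit made the list, so the levels and ratios of its members are given below as description, without a test.

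RNA from whole seedlings of the sks insertion mutant, in the Col-0 background, was hybridised to 1 Affymetrix array, and RNA from unmodified Col-0 seedlings to another. Both groups were at growth stage 1.0, when the cotyledons have just opened, and both were raised on Murashige-Skoog medium with 1% agar and 1% sucrose, at 22 °C with 24 hours of light a day. The sources used here do not say which gene the insertion disrupts or how many seedlings were pooled. With 1 array for sks and 1 for Col-0 there is no replicate error, so every difference below is between these 2 RNA samples, and no p-value was computed.

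A young green seedling draws much of its messenger RNA from a limited number of abundantly transcribed genes. Cytosolic ribosomal proteins, which with ribosomal RNA form the particle that makes protein, are needed in stoichiometric amounts in every growing cell and are encoded in Arabidopsis by small families of near-identical genes. Nuclear genes also supply many photosystem subunits, which are imported into the chloroplast and built into thylakoid membranes as the cotyledons green. Small secreted proteins of the wall and of defence, proton pumps of the vacuole and enzymes of amino acid synthesis are other common products of expanding tissue.

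The members fell into 10 cytosolic ribosomal proteins, 3 thylakoid proteins of photosynthesis, 6 wall, secreted or defence proteins, 2 proteolipids of the vacuolar proton pump, 2 proteins of mitochondria or amino acid synthesis, 1 dehydrin and 4 genes without an assigned function. With the deposited scaling all 10 ribosomal members had a higher signal in sks, by 1.20-fold to 1.82-fold. All 3 photosynthesis members had a lower one, at 0.728 to 0.740 of the Col-0 signal. Among the 4124 probe sets whose mean log2 signal reached the median, 45.5% were higher and 54.4% lower in sks. The direction in the ribosomal group depended in part on the scale, as given below. The wall, secreted or defence group and the genes without an assigned function held members on both sides. The members of the remaining groups were higher in sks with the deposited scaling, by 1.05-fold to 1.41-fold. The names in the gene tables placed 9 members in these groups. For 17 members the tables hold no gene name, and the family stated here is general knowledge of the Arabidopsis locus, added after the values were seen. No family is stated for the remaining 2 members.

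**Figure D1:**
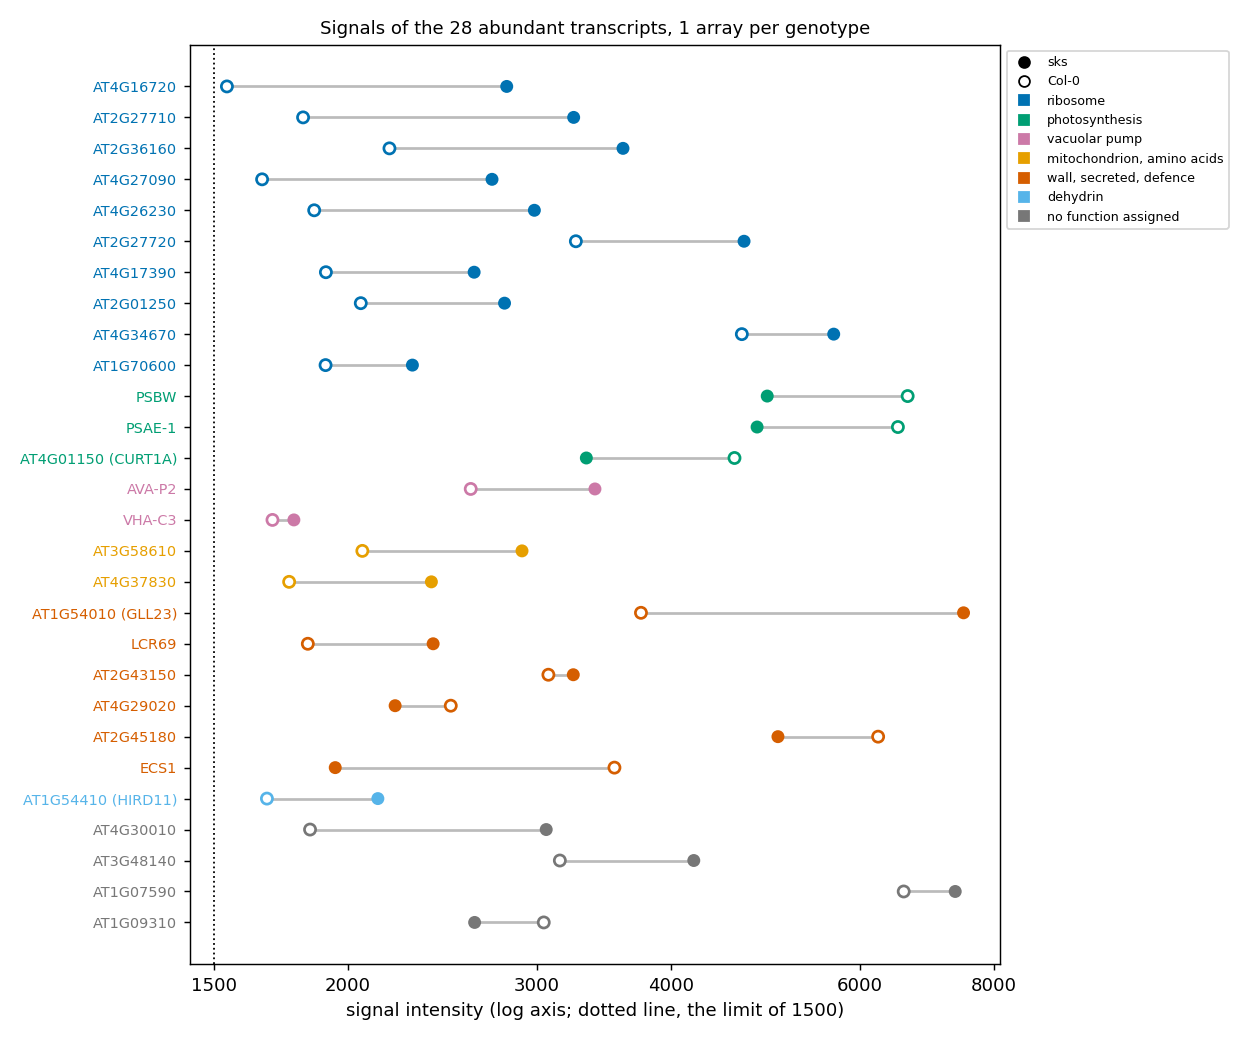
Signal intensity of each of the 28 members on a log axis, with the sks array as filled and the Col-0 array as open circles, coloured by functional group. The filled circle lies to the right of the open one in all 10 ribosomal genes and to the left in all 3 photosynthesis genes.

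Most strong signals on these arrays belong to genes that could not be described. Of 8247 non-control probe sets, 153 reached 1500 on both arrays, and of these 113 had no gene in the annotation used here, 3 had several and 37 had 1. The 37 comprised 6 probe sets of genes left out by name and 3 further probe sets of members. The 28 members are thus 18.3% of the strong non-control probe sets. Members carried 7.17% of the summed non-control signal in sks and 6.26% in Col-0. In sks they lay at or above the 97.8th percentile of non-control signals, and at or above the 97.7th in Col-0. Probe sets differ in how strongly they bind their target, so signals of different genes do not rank the abundance of their transcripts. Differences between sks and Col-0 are taken below only within the same probe set. Shares of summed signal add up different probe sets and describe the array, not numbers of molecules.

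The arrays had matching overall scale, with trimmed mean signals of 100.2 in sks and in Col-0. The 9 hybridisation spikes, control transcripts added in known amounts, were nevertheless brighter in sks, at ratios between 1.12 and 1.85 with 1.36 as the median. For GAPDH the 3′ control signal was 4.14 times the 5′ one in sks and 2.94 times in Col-0, a gauge of RNA integrity, and for ubiquitin it was 4.65 times in sks and 4.84 times in Col-0. The part of these measures in the differences below was not tested. Of 59 tissue marker genes listed for mesophyll, seed, root, vasculature, epidermis, guard cells and flowers, only the isocitrate lyase gene ICL was found among the single-gene probe sets. ICL, an enzyme that turns stored seed lipid into sugar, read 308.7 in sks against 35.3 in Col-0, and its part in the differences below was not tested. With 1 of 59 markers present, the make-up of the seedlings could not be checked from those lists. In RNA from whole seedlings, fewer cells of a type and less of a transcript per cell cannot be told apart.

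The ratio limit removed no probe set. All 37 single-gene probe sets at or above 1500 on both arrays lay within 2-fold, and so did 94.1% of the 153 non-control ones. The corresponding share was 79.5% of the 4124 measured probe sets, meaning those whose mean log2 signal reached the median. The ratio is part of the rule, and a limit on both arrays keeps out genes that are strong in only 1 genotype, so nothing is read from this contrast. With the limit set on the mean of both signals instead, 48 genes qualified, of which 42 lay within 2-fold, 3 were higher in sks by 2-fold or more and 3 lower.

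**Figure D2:**
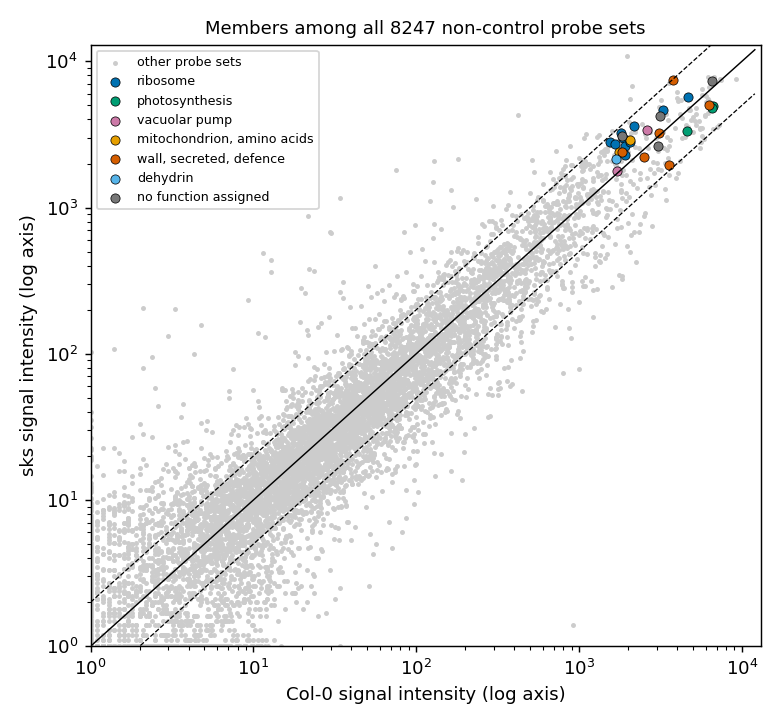
Signal in sks against signal in Col-0 for the 8247 non-control probe sets, both on log axes, with the 28 members coloured by functional group, the line of equality and dashed lines at 2-fold. Members lie in the upper right corner between the dashed lines, the ribosomal genes above the line of equality and the photosynthesis genes below it.

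By the chosen probe sets and the deposited scaling, a higher signal in sks was found for 21 of the 28 members and a lower one for 7. Among all measured probe sets 45.5% were higher and 54.4% lower, and among the 37 strong single-gene ones 59.5% were higher. The median log2 difference, sks minus Col-0, was 0.39 over the members and -0.08 over all measured probe sets. It was 0.16 over the 37 strong single-gene probe sets and 0.02 over the 153 strong non-control ones. The 6 genes left out by name were all lower in sks, and with them kept the members' median was 0.28. At least 1.5-fold higher were 7 members and at least 1.5-fold lower 1, where the shares among measured probe sets were 18.2% and 25.4%. Differences were under 1.25-fold in either direction for 8 members.

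Ribosomal proteins were the most numerous group at the limit of 1500, with 10 of 28 members, but not at a limit of 3000, where they were 20.0% of the 10 members and photosynthesis proteins 30.0%. Of the 10 genes, 8 encode proteins of the large subunit and 2 of the small subunit. In log2 terms the group's differences had a median of 0.60 and ran from 0.27 to 0.87, against the median of -0.08 over all measured probe sets. The group made up 33.9% of the summed signal of the members in sks and 26.6% in Col-0.

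In the large subunit, AT2G27710 and AT2G27720 encode acidic P2 proteins, which form the lateral stalk that recruits translation factors. AT2G27710 read 3246.4 in sks against 1816.1 in Col-0, a ratio of 1.79. AT2G27720 read 4680.1 in sks against 3261.8 in Col-0, a ratio of 1.43. These 2 genes are next to each other on chromosome 2, the only neighbouring pair among the members, and both signals were higher in sks.

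The ribosomal L15 family is represented by both AT4G16720 and AT4G17390. AT4G16720 had the largest ratio of the ribosomal group, with 2811.9 in sks against 1542.2 in Col-0, which is 1.82-fold higher. AT4G17390 read 2621.9 in sks and 1907.3 in Col-0, 1.37-fold higher. In both genes sks was higher, by unequal amounts, and the Col-0 signal of AT4G16720 was the closest of all members to the limit of 1500.

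AT4G27090, of the L14 family, had a signal of 2724.5 in sks against 1663.2 in Col-0, a ratio of 1.64. AT4G26230, of the L31 family, read 2983.8 in sks against 1860.0 in Col-0, a ratio of 1.60. AT2G01250, of the L7 family, read 2798.7 in sks against 2055.6 in Col-0, a ratio of 1.36. The smallest difference of the group was that of AT1G70600, of the L27a family, at 2296.5 in sks and 1905.9 in Col-0. All 4 encode proteins of the large subunit.

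In the small subunit, AT2G36160 encodes a protein of the S14 family and AT4G34670 one of the S3a family. AT2G36160 read 3609.1 in sks against 2186.1 in Col-0, a ratio of 1.65. AT4G34670 read 5673.4 in sks against 4657.9 in Col-0, a ratio of 1.22, on a probe set with an _i_at suffix, which marks an incomplete set of probes. Its second probe set, with an _s_at suffix, was dimmer at 1025.1 in sks against 816.3 in Col-0 and gave a similar ratio of 1.26. The 9 other ribosomal members had plain _at probe sets, but their families hold near-identical copies, so part of a signal may come from a sister gene.

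The name-based lists of ribosomal proteins matched no gene on the array, so no count over the whole set is given. Other probe sets of the same ribosomal families were looked up in a list of 20 family genes written after the members were known. Of these genes 14 had a single-gene probe set here. Besides the members and the second probe set of AT4G34670, AT3G52580 of the S14 family read 2001.4 in sks against 1046.2 in Col-0, and AT2G19740 of the L31 family read 697.4 in sks against 389.0 in Col-0. AT2G20450 of the L14 family was 2.69-fold higher, at 363.6 in sks against 135.2 in Col-0. The smallest difference was in AT2G44120 of the L7 family, with 559.2 in sks and 520.1 in Col-0. All 5 probe sets outside the list of members were therefore higher in sks, by 1.08-fold to 2.69-fold, with the deposited scaling. Among all measured probe sets 45.5% were higher. The log2 differences of AT2G44120, 0.10, and of the second probe set of AT4G34670, 0.33, are smaller than the spike shift of 0.44 described below. These 5 probe sets were read from the same 2 RNA samples and are no independent repeat.

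**Figure D3:**
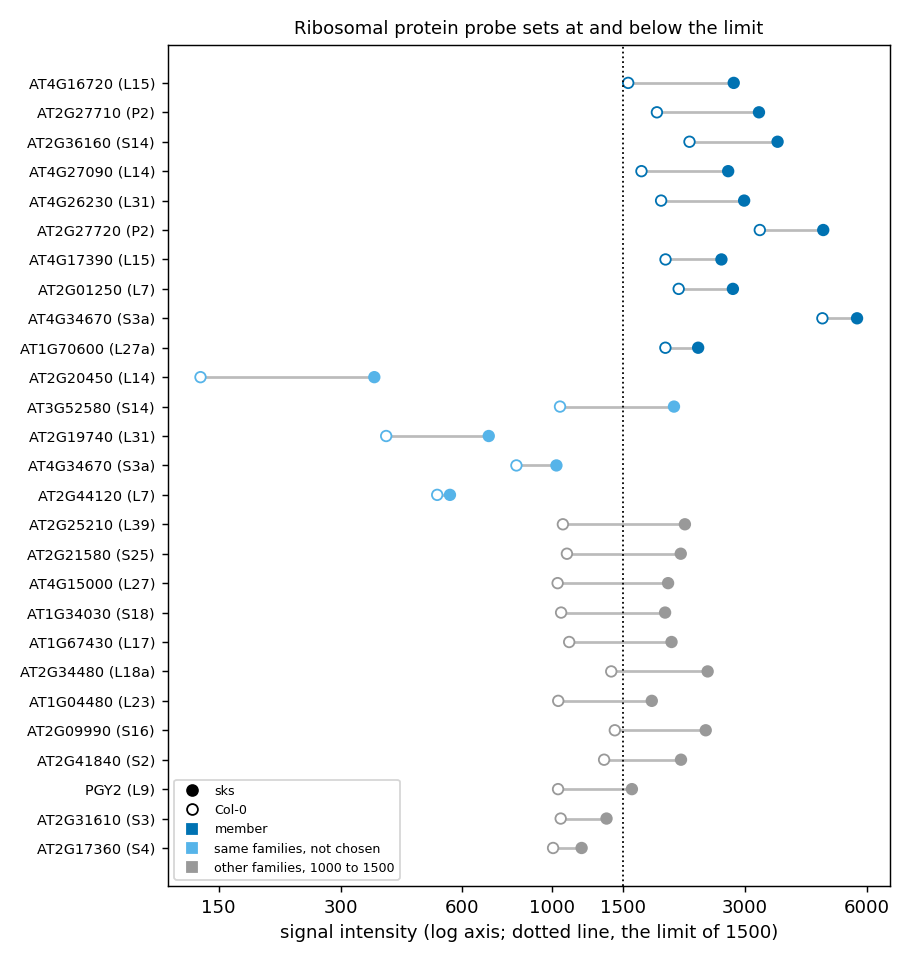
Signals of ribosomal protein probe sets on a log axis, sks filled and Col-0 open, for the 10 members (dark blue), 5 further probe sets of the same families (light blue) and genes of other ribosomal families whose lower signal lies between 1000 and 1500 (grey). In every gene drawn the sks signal is higher than the Col-0 signal with the deposited scaling.

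The direction within the ribosomal group depended in part on the scale. All 10 members were higher in sks after median centring, quantile normalization and loess removal of the trend with signal, with medians between 0.52 and 0.68. When sks signals were lowered to match the spikes, by 0.44 log2 units, the median was 0.16, 8 of 10 remained higher, and AT4G34670 and AT1G70600 were lower at -0.16 and -0.17.

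The photosynthesis members are all proteins of the thylakoid. PSBW, a small subunit of photosystem II, read 4918.9 in sks and 6649.5 in Col-0, a ratio of 0.740. PSAE-1, a stromal-side subunit of photosystem I near the site where ferredoxin docks, read 4813.0 in sks and 6511.7 in Col-0, a ratio of 0.739. AT4G01150, named CURT1A, encodes a protein that bends thylakoid membranes at the margins of grana, and read 3336.0 in sks and 4585.0 in Col-0, a ratio of 0.728. All 3 signals were lower in sks by nearly the same factor, with log2 differences between -0.46 and -0.43.

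Further probe sets of these genes were read on the same arrays. The second probe set of PSBW gave 3689.3 in sks and 5232.5 in Col-0, a ratio of 0.705. PSAE-1 had 2 more, at 3665.9 in sks and 4504.4 in Col-0, and at 898.1 in sks and 1278.7 in Col-0. Each was lower in sks, as the chosen probe set was. The chosen probe set of PSAE-1 and the single one of CURT1A carry the _s_at suffix for probes shared among transcripts, and the further ones of PSAE-1 carry other suffixes, _i_at and _r_at.

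The list of photosystem, antenna and electron transport genes found by name held 8 genes on the array, all measured, of which PSBW and PSAE-1 are members and 4 were left out by name. All 8 were lower in sks and 2 of them by 2-fold or more, while none was higher. Among all measured probe sets 54.4% were lower to any extent. By 2-fold or more 12.4% were lower and 8.12% higher. The 8 genes had a median log2 difference of -0.51, against -0.08 over all measured probe sets. The 3 photosynthesis members stayed lower in sks under all 4 other scalings, with medians of -0.35 after median centring and -0.88 after spike scaling.

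Ribosomal and photosynthesis members did not overlap in their differences. The medians of the 2 groups were 1.04 log2 units apart, and the nearest members, AT1G70600 and PSBW, were 0.70 apart. Multiplying a whole array by a single factor moves every gene by the same amount and leaves these gaps as they are. Since the membership rule bounds the ratios and the groups were formed after the values were seen, this separation is a description of 2 arrays.

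The wall, secreted and defence group varied most. AT1G54010, named GLL23 and belonging to the GDSL-like lipases, had 7496.9 in sks and 3751.1 in Col-0, a ratio of 1.999 that lies just inside the limit of 2. ECS1, which encodes a small protein of the cell wall, was lowest of all members relative to wild type, at 1945.9 in sks and 3543.4 in Col-0, a ratio of 0.549. The first was thus almost 2-fold higher and the second 1.82-fold lower in sks, and ECS1 was below Col-0 under every scaling tried. Both could pass the 2-fold limit. AT1G54010 was at 1.08 log2 units after median centring, and ECS1 at -1.31 after spike scaling.

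LCR69, also named PDF2.2, a plant defensin, read 2401.0 in sks and 1834.7 in Col-0, a ratio of 1.31. AT2G43150, an extensin-like proline-rich protein of the wall, read 3243.8 in sks and 3075.0 in Col-0. AT4G29020, a glycine-rich protein, read 2212.9 in sks and 2493.6 in Col-0. The last 2 differed by less than 1.25-fold. On the deposited scale 3 of the 6 genes of the group were higher and 3 lower in sks. The group's median log2 difference was -0.05. LCR69 fell below Col-0 after spike scaling, at -0.054 log2 units. AT2G43150 did so after spike scaling, at -0.36, and after loess removal, at -0.0096. The name-based list of cell wall and secreted proteins had 13 measured genes, of which 6 were higher and 7 lower in sks, with a median of -0.17. The list of defence and stress proteins had 26, of which 14 were higher and 12 lower, with a median of 0.10.

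AT2G45180 encodes a member of the lipid transfer protein superfamily, small cysteine-rich proteins that are mostly secreted. Its chosen probe set read 5033.4 in sks and 6241.1 in Col-0, a ratio of 0.806. A second probe set read 4798.6 in sks and 4727.7 in Col-0, a ratio of 1.01. The probe sets of this gene did not agree on a direction, so none is given. In the counts of higher and lower members it stands as lower, by its chosen probe set only.

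Both vacuolar members encode the proteolipid c subunit of the V-ATPase, which forms the rotating ring that moves protons into the vacuole. AVA-P2 read 3398.2 in sks and 2602.8 in Col-0, a ratio of 1.31. VHA-C3 read 1780.6 in sks and 1700.6 in Col-0, a ratio of 1.05. The genes of this subunit are very similar and both probe sets carry an _s_at suffix, so their signals may be shared. Another gene of the subunit, AVA-P1, fell short of the limit with 1306.3 in sks and 1404.7 in Col-0. The name-based list of membrane transport proteins, which holds all 3, had 9 measured genes with a median log2 difference of -0.10, and 3 of the 9 were higher in sks. AT2G16510, of the same subunit by general knowledge of its locus, read 1325.1 in sks and 1179.3 in Col-0, a ratio of 1.12. Signals of this subunit were close to equal, except for AVA-P2. With spike scaling AVA-P2 and VHA-C3 were lower in sks at -0.06 and -0.38 log2 units. VHA-C3 was also lower after quantile normalization, at -0.04.

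AT3G58610 encodes ketol-acid reductoisomerase, a plastid enzyme of branched-chain amino acid synthesis. It read 2905.7 in sks and 2062.5 in Col-0, a ratio of 1.41, and a second probe set gave 1762.8 in sks and 1289.0 in Col-0, a ratio of 1.37. AT4G37830 encodes a subunit of cytochrome c oxidase, the last complex of the respiratory chain, and read 2392.0 in sks and 1762.6 in Col-0, a ratio of 1.36. Both genes were moderately higher in sks with the deposited scaling. After spike scaling AT4G37830 was level, at -0.0013 log2 units.

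The dehydrin AT1G54410, named HIRD11, belongs to a class of hydrophilic proteins that protect cells against water loss. It read 2132.4 in sks and 1680.5 in Col-0, a ratio of 1.27, and was lower in sks after spike scaling, at -0.10 log2 units. This gene therefore has no direction that holds on every scale.

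Among the 4 genes without an assigned function, AT4G30010 had the largest difference, at 3060.7 in sks and 1843.5 in Col-0, a ratio of 1.66. AT3G48140, of the B12D family, read 4201.4 in sks and 3151.6 in Col-0. AT1G09310, of a family of proteins with a domain of unknown function, read 2624.7 in sks and 3044.5 in Col-0. Of these 3 genes the first 2 were higher and the last lower in sks with the deposited scaling. After spike scaling AT3G48140 was lower in sks, at -0.03 log2 units.

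AT1G07590 read 7364.3 in sks and 6593.3 in Col-0, a ratio of 1.12, and was lower in sks after spike scaling, at -0.28 log2 units. In the RefSeq gene table of TAIR10.1 its interval overlaps that of the next gene, MT1A, which encodes a metallothionein, a small cysteine-rich metal-binding protein. Which of both transcripts the probe set detects was not tested, and the probe set carries an _s_at suffix. In all, 10 of the 28 members overlap a neighbouring protein-coding gene in that table. Among them are the ribosomal genes AT4G26230, AT4G17390 and AT4G16720, and also PSAE-1, AVA-P2 and VHA-C3. Strand was not compared and the share over all genes was not computed, so nothing is read from this count.

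By locus code, 7 members lie on chromosome 1, 8 on chromosome 2, 2 on chromosome 3, 11 on chromosome 4 and 0 on chromosome 5. The genes named on the array are themselves unevenly spread, with 37.1% on chromosome 2, 31.8% on chromosome 4 and 4.19% on chromosome 5. The placement of the members says little beyond that of the annotation.

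Some genes lay close to the limits. Just below the signal limit were CYTC-1, encoding cytochrome c, with 2480.7 in sks and 1491.8 in Col-0, AT4G20150 with 2442.9 in sks and 1489.3 in Col-0, and AT2G21160 with 2505.7 in sks and 1442.5 in Col-0. The histone H3.1 gene AT5G65360 read 1702.2 in sks and 1470.0 in Col-0. The defensin gene LCR68 read 1452.2 in sks and 1817.0 in Col-0. In the first 4 of these the Col-0 signal missed the limit, and in LCR68 the sks signal did.

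Just above the limit were AT4G16720, AT4G27090, AT1G54410, VHA-C3 and AT4G37830, whose lower signals ran from 1542.2 to 1762.6. Among the genes left out by name, 6 met both limits, and all 6 were lower in sks. The photosystem genes PSBY and PSAN had ratios of 0.501 and 0.682, the Rubisco activase gene RCA one of 0.708 and the antenna gene LHCB4.1 one of 0.723. The antenna gene LHB1B2 read 4085.4 in sks and 4300.8 in Col-0, and EIN3, a factor of ethylene signalling, 1555.3 in sks and 1687.4 in Col-0. With these genes kept, the list would have 34 members, 13 of them lower in sks.

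**Figure D4:**
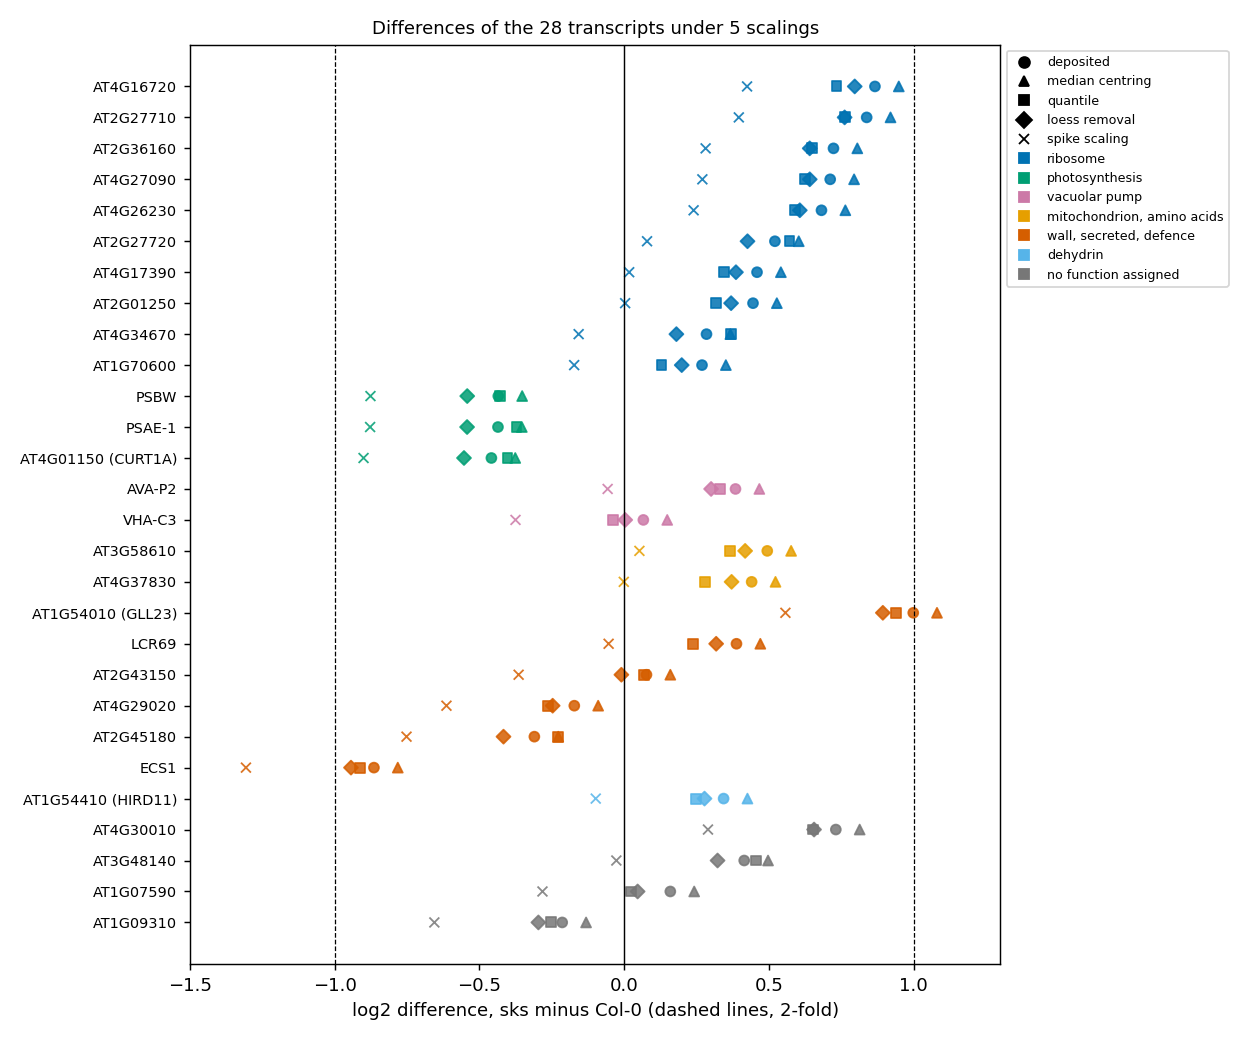
Log2 difference, sks minus Col-0, of each member with the deposited values and after median centring, quantile normalization, loess removal and spike scaling, coloured by functional group. Dashed lines mark 2-fold. Spike scaling moves all points by 0.44 to the left, and the ribosomal and photosynthesis genes stay apart under each scaling.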

How the data were processed

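Total RNA was labelled with biotin through an oligo-dT primed T7 reaction, per the labels' protocols, and hybridised to 2 Affymetrix arrays of 8297 probe sets. The deposited values are linear probe set intensities. How the probes were summarised is not given in the sources used here. Trimmed means (2% from each end) were equal to within rounding, and no scaling was added. The number of arrays limits precision, and no test was possible. Genes came from the platform annotation (3794 probe sets with 1 gene), with symbols updated through RefSeq TAIR10.1 for 3784. Log2 differences are sks minus Col-0, and signals below 1 were set to 1 only in counts over all probe sets. Members, groups and lists were chosen with earlier results of these data known. Functional groups were assigned by hand after the values were seen, because the name-based lists placed only 6 members. The named genes are the 25 with the highest mean signal, up to 4 per group, the 6 at each end of the ratios and 5 on each side of the signal limit, which together take in all members. The selection was tested on simulated data in which no gene was placed right at the limits, so the test does not bear on genes close to them. Python 3.11.15, pandas 2.3.3, numpy 2.4.6 and scipy 1.17.1 were used. Alternatives were other limits, 4 scalings, averaged probe sets, plain suffixes and kept exclusions.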

Additional observations from a re-analysis of the deposited data

How the results depend on the processing

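The number of members, 28, was 62 with a signal limit of 1000 and 10 with one of 3000, since the limit sets the list, and stayed within 1.5 times of 28 in the other settings tried. The 42 found with a limit on the mean signal were added after seeing the data. Members lower in sks numbered 7 of 28. With the list chosen anew in each setting, they were 13 of 34 with the excluded genes kept and 4 of 19 with plain suffixes. They were 16 of 62 at a limit of 1000, 4 of 10 at 3000 and 15 of 26 after spike scaling. Of the 28 members themselves, 17 were lower after spike scaling. The members' median log2 difference of 0.39 was -0.040 after spike scaling, which lowers every sks signal, and 0.12 at a limit of 3000, so it depends on the scale and on the limit. The share of photosynthesis members, 10.7%, was 23.5% with the excluded genes kept, 30.0% at 3000, 6.45% at 1000 and 5.26% with plain suffixes, so the exclusions by name also set the make-up of the list. Ribosomal proteins were 35.7% of members and 20.0% at 3000, and their share of the members' summed sks signal, 33.9%, was 20.4% there. No single member moved by more than 0.65 log2 units, the pooled SD between probe sets of 1 gene. Spike scaling and median centring shift every member alike, by 0.44 and 0.08, so neither could pass that bound. In size the same SD exceeds the median differences of the members, 0.39, of the ribosomal ones, 0.60, and of the photosynthesis ones, -0.44. Under spike scaling 10 members changed direction. Promoter and protein features were not run. Leaving out a replicate was impossible. No paired analysis was possible because the groups share only 1 replicate number, with 1 array each.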

Other observations

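Below the limit, 35 further genes had a lower signal between 1000 and 1500, of which 26 were higher and 9 lower in sks. By general knowledge of their loci, stated after the values were seen, 13 of them encode cytosolic ribosomal proteins, and all 13 were higher in sks with the deposited scaling, by 1.18-fold to 2.00-fold, where 45.5% of all measured probe sets were higher. One of the 13, AT3G52580 of the S14 family, is also among the 5 further family probe sets of the report. Their median log2 difference was 0.79. Among them AT2G21580, of the S25 family of the small subunit, read 2080.1 in sks and 1088.2 in Col-0. AT4G15000, of the L27 family of the large subunit, read 1935.3 in sks and 1032.1 in Col-0. PGY2, of the L9 family, read 1575.1 in sks and 1034.7 in Col-0. AT3G47370, of the S20 family, lay outside this range, with 2423.5 in sks and 725.4 in Col-0, a ratio of 3.34. It came from a list of genes strong on at least 1 array and at least 2-fold apart. Its difference is set by that choice and adds nothing to the count of 13.

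The 113 strong probe sets without a gene name showed no such lean. Of these, 55 were higher in sks, their median log2 difference was -0.03, and 2-fold or larger differences were seen in 4 that were higher and 5 that were lower. What they encode was not analysed here.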
